A study of Mus musculus with 2 samples.

Results

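The 8 genes Trem2, Gpnmb, Spp1, Cd9, Fabp5, Lgals3, Cd63 and Lpl, which are used as markers of scar-associated macrophages, were followed across the cell types of normal and fibrotic mouse liver. They were chosen by symbol, and all 8 were listed in the table of the normal library, among 20468 genes, and in that of the fibrosis library, among 20473 genes. Single-cell RNA-seq (10x Chromium, 3′ chemistry) was performed on liver non-parenchymal cells of male C57BL/6 mice that were 8 weeks old. The mouse of the fibrosis library received intraperitoneal CCl4, a hepatotoxin given as a 15% solution in olive oil at 0.6 µl per g, and the mouse of the normal library received olive oil. Both were injected 2 times weekly over 6 weeks, and cells were collected 48 h after the final dose by collagenase perfusion, with hepatocytes removed by low-speed centrifugation. Each condition was 1 mouse and 1 library, so no test between conditions was possible and a difference between conditions cannot be told apart from a difference between mice.

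Scar-associated macrophages are cells of fibrotic liver that largely derive from recruited monocytes, whereas Kupffer cells are the resident macrophages of the sinusoid. TREM2 is a surface receptor that binds lipids and apolipoproteins and signals through TYROBP, and the genes that rise with it in lipid-laden macrophages of several tissues include lysosomal, lipid-handling and matrix genes. Spp1 encodes osteopontin, a secreted matrix glycoprotein that is also a product of bile duct epithelium, so that cholangiocytes are the known second source of this transcript in liver.

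The members lie on 7 mouse chromosomes (GRCm38, the assembly also called mm10). Trem2 is at 17:48346401-48354147, Gpnmb at 6:49036546-49070929, Spp1 at 5:104435118-104441050, Cd9 at 6:125460266-125494791 on the minus strand, Fabp5 at 3:10012548-10016607, Lgals3 at 14:47367751-47386160, Cd63 at 10:128900989-128912822 and Lpl at 8:68880491-68907448. All are protein-coding, and all but Cd9 are on the plus strand. RefSeq promoter windows on GRCm38.p6, from 250 bases before to 50 bases after a transcript start, were found for 6 of the 8 genes (7 windows, of which 2 belong to Spp1). Fabp5 and Lpl had no entry. The windows of Trem2 and Gpnmb are shown because their levels across cell classes were the most alike among the members, and the first window of Spp1 because its pattern differed from theirs. Capitals mark the motif match in each window, read 5′ to 3′ on the plus strand.
Trem2, chr17:48346151-48346450: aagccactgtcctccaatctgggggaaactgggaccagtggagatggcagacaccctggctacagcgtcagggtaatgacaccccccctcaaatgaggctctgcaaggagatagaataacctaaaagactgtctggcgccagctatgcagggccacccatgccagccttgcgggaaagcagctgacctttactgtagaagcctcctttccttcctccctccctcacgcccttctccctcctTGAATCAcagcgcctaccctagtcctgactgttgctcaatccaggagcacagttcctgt
Gpnmb, chr6:49036268-49036567: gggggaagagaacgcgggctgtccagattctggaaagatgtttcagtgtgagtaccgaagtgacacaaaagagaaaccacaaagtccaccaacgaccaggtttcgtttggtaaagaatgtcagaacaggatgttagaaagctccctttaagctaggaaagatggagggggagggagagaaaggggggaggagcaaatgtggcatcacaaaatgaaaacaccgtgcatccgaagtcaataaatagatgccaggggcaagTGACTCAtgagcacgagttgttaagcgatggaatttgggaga
Spp1, chr5:104434861-104435160: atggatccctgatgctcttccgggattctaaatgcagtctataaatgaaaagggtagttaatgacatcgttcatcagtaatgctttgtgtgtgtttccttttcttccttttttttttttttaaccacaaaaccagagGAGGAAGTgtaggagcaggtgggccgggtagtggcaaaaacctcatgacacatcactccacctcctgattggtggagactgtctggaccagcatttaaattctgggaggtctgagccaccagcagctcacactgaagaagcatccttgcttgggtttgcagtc
The motifs searched on either strand were the AP-1 site TGANTCA, the PU.1 site GAGGAAGT and the E-box CACGTG bound by MITF and TFEB, and none of the matches overlapped another. The AP-1 letters began 9 bases before the start in Trem2 and at base 9 after the start in Gpnmb, and were in 7.81% of all 32817 windows. The PU.1 letters began 113 bases before the start in Spp1, and were in 3.20% of all windows. The E-box letters were in 0 of the 7 windows and in 7.15% of all windows. These matches describe the letters only.

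After the mitochondrial filter, 7471 cells of the normal library (median 4226 UMIs, unique molecular identifiers that each count 1 captured transcript) and 6132 cells of the fibrosis library (median 5775.5) were kept. Each library was clustered on its own, without the 8 genes, and clusters were named from marker lists that hold none of them, as "X-like" classes. Levels are UMIs of a gene per 10000 UMIs of a class, with exact 95% Poisson intervals, and ratios have exact conditional 95% intervals. These intervals, and those of shares, cover counting error only. The 3′ counts were compared between cells for the same gene, never between genes. Orders of levels cover the named classes only, and single clusters, named or not, can lie above them.

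The normal library held 406 Kupffer-like and 52 macrophage-like cells, and the fibrosis library 239 and 278. The Kupffer list separated the 2 classes and the macrophage list as a whole did not. The 10 Kupffer markers (such as Clec4f, Vsig4 and Timd4) summed to 192 UMIs per 10000 in normal and 221 in fibrosis Kupffer-like cells, against 9.51 and 26.9 in macrophage-like cells, with none of the 10 at 0. The 12 macrophage markers summed to 125 in normal and 92.6 in fibrosis macrophage-like cells, against 114 and 106 in Kupffer-like cells, with none of the 12 at 0. In fibrosis 5 of the 11 tested were higher in macrophage-like than in Kupffer-like cells and 6 were lower (median ratio 0.746). Cx3cr1 (10.1), Ms4a7 (5.69), Pf4 (4.15) and C3ar1 (2.91) were over 2-fold higher, while the general macrophage genes Adgre1 (0.577), Csf1r (0.630) and C1qa (0.519) were lower. The macrophage-like class thus rests on those 4 genes and on its low Kupffer markers. Different clusters held the macrophage-like class in each library. In the normal library it was 1 cluster led by Cx3cr1, Mmp13 and Cd207. In the fibrosis library it was a cluster of 156 cells led by Ighg2b, Atp6v0d2 and Syngr1 and holding Mmp12 among its 10 leading genes, and a cluster of 122 cells led by Ms4a7 and Cx3cr1, which are called the Mmp12 and the Ms4a7 cluster below. The Mmp12 cluster had 8 of the 12 macrophage markers raised at least 2-fold but none among its 10 leading genes, of which the immunoglobulin gene Ighg2b was first.

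B-cell-like and T/NK-cell-like cells (lymphoid cells, 1594 in normal and 830 in fibrosis), which should lack most of these transcripts, gave a measure of free RNA in the droplets. Comparisons with this measure were per UMI, or of cells drawn down to equal depth. Fibrosis lymphoid cells were shallower than fibrosis Kupffer-like, macrophage-like and cholangiocyte-like cells, so a comparison per cell could differ. In the normal library Trem2 stood at 0.0119 and Gpnmb at 0.0238 UMIs per 10000 in lymphoid cells, and in the fibrosis library at 0.635 and 1.87. Other members were higher in normal lymphoid cells, where Spp1 stood at 1.20 (108% of its normal macrophage-like level), Fabp5 at 0.740 (80.7%) and Cd9 at 0.799 (36.1%), and the median over the 8 was 11.9%. All 8 genes were higher in fibrosis lymphoid cells than in normal ones by the interval of the ratio, against 51.9% of 4865 genes, and 7 were over 2-fold, against 6.06%. The ratio ranged from 1.22 for Cd9 to 78.9 for Gpnmb. In fibrosis lymphoid cells a member was at a median of 6.17% of its macrophage-like level (3.25 to 28.2%), and the Kupffer markers at a median of 8.19% of their Kupffer-like level. The macrophage markers were at a median of 14.3% of their macrophage-like level there (4.29 to 107%, the highest being Cd72). Erythroid-like droplets of the fibrosis library, with a median of 1056 UMIs, held more of each member than lymphoid cells, for example 7.31 UMIs of Lpl, 3.20 of Gpnmb and 1.20 of Trem2 per 10000. Hepatocyte markers moved the other way: 10 of 10 were under 0.5 times their normal level in lymphoid and in Kupffer-like cells.

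**Figure D1:**
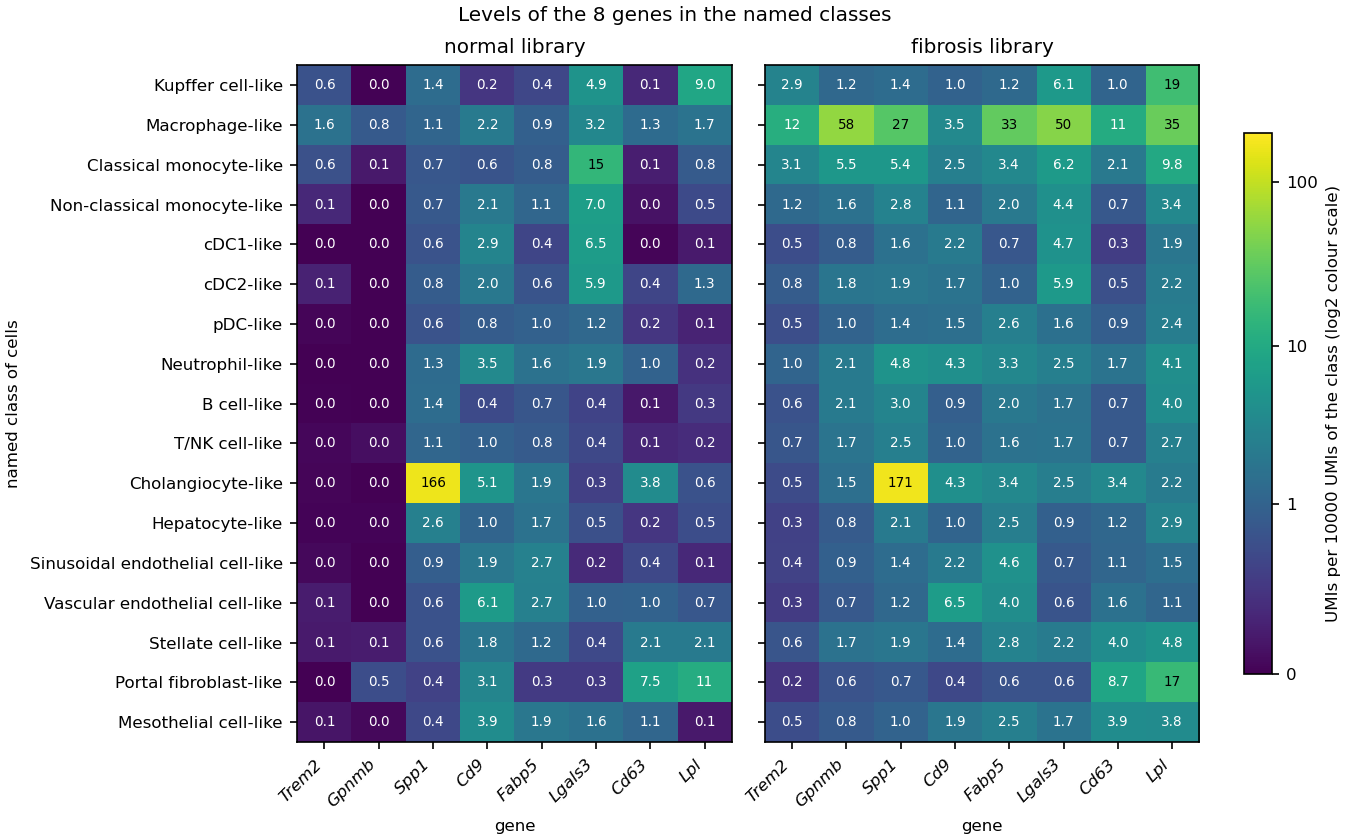
Level of each of the 8 genes (columns, UMIs per 10000 UMIs of the class, log2 colour scale) in 17 named classes (rows) of the normal and fibrosis libraries. The brightest cells are Spp1 in cholangiocyte-like cells of either library (166 and 171) and most of the macrophage-like row of the fibrosis library, such as Gpnmb at 57.7 and Lgals3 at 50.2.

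Trem2, the receptor, was at its highest in macrophage-like cells of both libraries. Its normal level there was 1.64 UMIs per 10000 (1.19 to 2.21), against 0.587 in Kupffer-like and 0.568 in classical monocyte-like cells, the last 2 not separated by their intervals. After CCl4 it was at 11.8 (11.5 to 12.1) in macrophage-like cells, 6.98 in cycling phagocytes, 3.09 in classical monocyte-like and 2.94 in Kupffer-like cells. Again the last 2 overlapped. Macrophage-like cells, 278 of the 6132 kept, held 52.0% of all Trem2 UMIs of the fibrosis library. After thinning each cell to 1000 UMIs, Trem2 was detected in 62.9% of fibrosis macrophage-like cells (57.0 to 68.6), 17.6% of Kupffer-like cells and 5.93% of lymphoid cells. Before thinning these shares were 99.6, 70.3 and 16.6%, at median depths of 15709, 10582 and 2561 UMIs.

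Gpnmb, which encodes a transmembrane glycoprotein of lysosomes and melanosomes, was close to undetected in the normal liver. Its 20 UMIs in normal macrophage-like cells (0.764 per 10000, 0.467 to 1.18) lay in 3.85% of those cells, and 406 Kupffer-like cells held 1 UMI. Fibrosis macrophage-like cells reached 57.7 UMIs per 10000 (57.1 to 58.4), and cycling phagocytes 17.0. Classical monocyte-like cells followed at 5.47. Of all Gpnmb UMIs in the fibrosis library, 73.3% lay in macrophage-like cells, the largest such share among the 8 genes. It was detected in 89.2% of these cells after thinning (99.3% before), against 10.5% of Kupffer-like and 17.8% of lymphoid cells. Kupffer-like cells thus did not exceed the free-RNA measure for Gpnmb at equal depth, and were not compared with it per cell.

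Lpl, the lipoprotein lipase that releases fatty acids from triglyceride-rich particles, was a gene of Kupffer-like cells in the normal library. It stood there at 9.01 UMIs per 10000 (8.60 to 9.43), below portal fibroblast-like cells (10.9) and above macrophage-like cells (1.72). In the fibrosis library the order changed to macrophage-like cells at 35.1, Kupffer-like cells at 19.3, cycling phagocytes at 17.0 and portal fibroblast-like cells at 16.7, with only the last pair overlapping. The ratio of macrophage-like over Kupffer-like cells was 0.191 (0.139 to 0.256) in the normal and 1.82 (1.76 to 1.88) in the fibrosis library. Lpl was detected in 75.7% of Kupffer-like and 76.6% of macrophage-like cells of the fibrosis library after thinning, against 28.8% of lymphoid cells.

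Fabp5, a carrier of fatty acids within cells, was mainly endothelial in the normal library. Its level was 2.71 UMIs per 10000 in sinusoidal and 2.65 in vascular endothelial-like cells, which overlapped, and 0.917 in macrophage-like and 0.40 in Kupffer-like cells. Fibrosis macrophage-like cells rose to 32.5 UMIs per 10000, ahead of cycling phagocytes (8.25) and sinusoidal endothelial-like cells (4.57). Fabp5 was found in 69.1% of fibrosis macrophage-like, 9.62% of Kupffer-like and 18.3% of lymphoid cells after thinning. Kupffer-like cells were again under the lymphoid share.

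Lgals3, which encodes the secreted lectin galectin-3, was highest in monocytes in the normal library. Classical monocyte-like cells stood at 15.4 UMIs per 10000 (14.2 to 16.6), non-classical monocyte-like cells at 6.97, cDC1-like cells at 6.5 and cDC2-like cells at 5.88, with intervals of neighbours among these 3 that overlapped, Kupffer-like cells at 4.89 and macrophage-like cells at 3.25. After CCl4 it was 50.2 in macrophage-like cells, 18.7 in cycling phagocytes, 6.23 in classical monocyte-like and 6.09 in Kupffer-like cells. Classical monocyte-like cells of the fibrosis library were thus lower than those of the normal library (ratio 0.405, 0.371 to 0.443), while their Trem2, Gpnmb, Spp1, Cd9, Fabp5, Cd63 and Lpl were higher. This class was 1 F13a1-led cluster in the normal library and 3 clusters in the fibrosis library, 1 of which had high doublet scores in 52.1% of its cells. The F13a1-led fibrosis cluster of 24 cells had an Lgals3 level of 10.3 and 1.35 of Trem2, while its Gpnmb (1.04), Spp1 (1.17) and Cd63 (0.184) were below fibrosis lymphoid cells.

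Cd63 and Cd9 encode tetraspanins, membrane proteins that organise other proteins at the surface and in endosomes, and were present in several classes besides phagocytes. Cd63 in the normal library was led by portal fibroblast-like cells (7.53 UMIs per 10000), cholangiocyte-like cells (3.82) and stellate cell-like cells (2.11), and was 1.34 in macrophage-like and 0.143 in Kupffer-like cells. Fibrosis macrophage-like cells took the first place for Cd63 with 10.7, ahead of portal fibroblast-like cells at 8.75. Among named classes Cd9 was highest in vascular endothelial-like cells of both libraries, at 6.14 and 6.49 UMIs per 10000 (ratio 1.06, 0.991 to 1.13). Without the highest 5% of doublet scores, neutrophil-like cells were highest in fibrosis. Macrophage-like cells were at 2.22 in normal and 3.46 in fibrosis, and cholangiocyte-like cells, with 5.09 and 4.34, lay above them in both. After thinning, Cd9 was detected in 24.8% of fibrosis macrophage-like cells (19.9 to 30.3), 10.9% of Kupffer-like and 10.9% of lymphoid cells, the smallest gap between macrophage-like and lymphoid cells among the 8 genes.

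Spp1 had a different first source. Cholangiocyte-like cells (235 in normal, 90 in fibrosis) stood at 166 UMIs per 10000 of Spp1 (164 to 167) without and 171 (169 to 173) with CCl4, and the ratio of the 2 libraries was 1.03 (1.02 to 1.05) per UMI and 1.55 (1.53 to 1.58) per cell. Per cell, the normal cholangiocyte-like cells had a median of 158 and a highest value of 503, and the fibrosis ones 180 and 422. Outside them the named normal classes held at most 2.63 UMIs per 10000, with 2.63 in hepatocyte-like, 1.36 in Kupffer-like, 1.11 in macrophage-like and 1.20 in lymphoid cells. Among named classes macrophage-like cells came second after CCl4, with 27.2 UMIs (26.8 to 27.7), followed by classical monocyte-like cells at 5.43. Kupffer-like cells, at 1.38, were below lymphoid cells at 2.70.

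Cholangiocyte-like cells therefore held 93.2% of all Spp1 UMIs of the normal library (93.0 to 93.4) and 53.4% of those of the fibrosis library (52.9 to 53.8). Macrophage-like cells went from 0.0522% to 23.0%, other phagocytes from 0.703% to 12.3%, and Kupffer-like cells from 0.496% to 0.641%. The numbers of cells of each class, which the cell isolation can set, enter these shares. Other epithelial genes of bile ducts did not follow Spp1 into macrophage-like cells: the 12 cholangiocyte markers summed to 0.238 UMIs per 10000 in fibrosis macrophage-like cells, with none at 0, against 47.6 in cholangiocyte-like cells, and Epcam stood at 0.0123. With a mitochondrial limit of 5% in place of 10%, only 4 normal and 6 fibrosis cells of the class lie within the limit. Clusters drawn anew under that limit gave the cholangiocyte-like name to 298 normal and 0 fibrosis cells, with 38.1% and 0% of the Spp1 UMIs, and the fibrosis class highest in Spp1 was then hepatocyte-like. These shares are thus of other cells and do not bear on the cholangiocyte-like class described here.

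**Figure D2:**
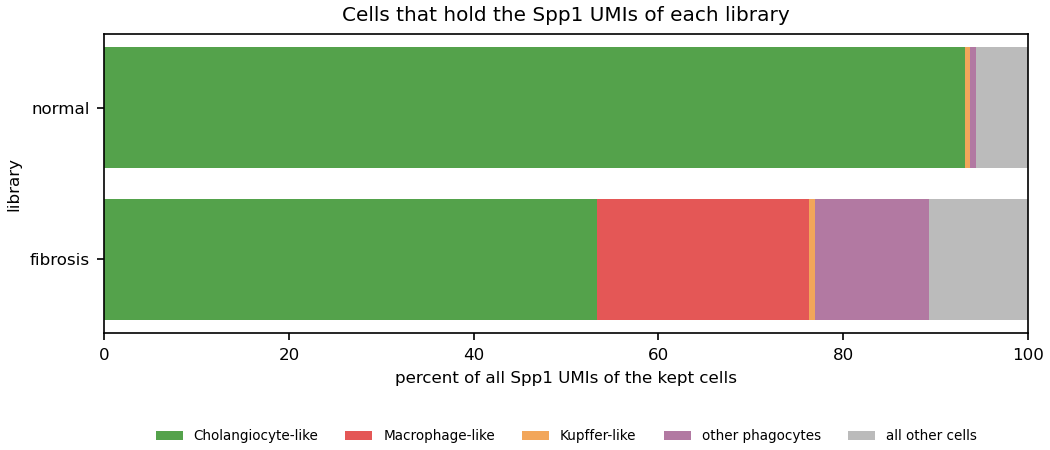
Percent of all Spp1 UMIs of the kept cells (x axis) that lie in cholangiocyte-like, macrophage-like, Kupffer-like, other phagocyte and all other cells of each library (bars). The cholangiocyte-like part is 93.2% in normal and 53.4% in fibrosis, and the macrophage-like part is 23.0% in fibrosis.

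Within cholangiocyte-like cells the other members were compared next. Of the 7 members with at least 0.5 UMIs per 10000 in either library, 5 were higher in fibrosis by the interval, against 28.9% of 4679 genes, and 3 were over 2-fold, against 2.95%. Cd9 and Cd63 were lower, with ratios of 0.854 (0.783 to 0.931) and 0.879 (0.796 to 0.970), but higher per cell (1.29 and 1.32), at median depths of 9718 normal and 11901.5 fibrosis UMIs. Lgals3 went from 0.326 to 2.48, but 3 cells held 83.2% of its fibrosis UMIs there, and lymphoid cells went from 0.407 to 1.70. Gpnmb had no UMI in 235 normal cells and 1.52 per 10000 in fibrosis, with 71.9% in 3 cells. Per UMI, fibrosis cholangiocyte-like cells did not exceed lymphoid cells for Gpnmb, Trem2 or Lpl.

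The comparison of fibrosis with normal Kupffer-like cells asked whether resident macrophages carry the same genes after CCl4. The ratio of fibrosis over normal was above 1 by its interval for 7 of the 8 members, against 39.6% of 4158 genes, and over 2-fold for 6, against 5.89%. Their median ratio was 3.65, while the median log2 ratio of all genes was 0.16. Trem2 went from 0.587 to 2.94 UMIs per 10000 (ratio 5.01, 4.12 to 6.12), and Lpl from 9.01 to 19.3 (2.14, 2.03 to 2.26). Both exceeded lymphoid cells in each library. Gpnmb went from 1 UMI to 319 (ratio 240, 42.8 to 9519), Cd63 from 0.143 to 1.04 (7.30, 4.97 to 11.1), Cd9 from 0.237 to 0.996 (4.20, 3.08 to 5.84) and Fabp5 from 0.40 to 1.24 (3.10, 2.42 to 4.0). Of these 4, only Cd63 exceeded fibrosis lymphoid cells by its interval, where it stood at 0.739, while lymphoid cells held 1.87 of Gpnmb, 0.977 of Cd9 and 1.77 of Fabp5. Lgals3 moved from 4.89 to 6.09 (1.25, 1.15 to 1.35).

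Spp1 in Kupffer-like cells was 1.36 in normal and 1.38 in fibrosis (1.01, 0.862 to 1.18). In the normal library 3 cells held 40.6% of these UMIs, and the ratio without the 3 cells that held most in either library was 1.60 (1.32 to 1.94). Per cell, rather than per UMI, it was 2.28 (1.94 to 2.67), and the other ratios were larger too, such as 11.3 for Trem2, 16.5 for Cd63, 4.83 for Lpl and 2.81 for Lgals3, at median depths of 4210.5 normal and 10582 fibrosis UMIs. When the lymphoid level of each library was subtracted, only Trem2 and Lpl remained higher in fibrosis Kupffer-like cells by their bounds. Trem2 was then 0.575 in normal and 2.30 in fibrosis, and Lpl 8.81 and 16.1. Cd63 was 0.0311 and 0.306, with bounds that overlapped, Lgals3 4.48 and 4.40, and the other 4 at or near 0 in fibrosis. The subtraction was per UMI, from fibrosis lymphoid cells that were shallower than fibrosis Kupffer-like cells. It was not made per cell, so it does not settle whether the other members rose. Of this class, 97 normal and 46 fibrosis cells lie within a 5% mitochondrial limit. Clusters drawn anew under that limit gave the Kupffer-like name to 107 and 77 cells, so partly to other cells, and most ratios were larger. Trem2 was then at 12.1 (7.57 to 20.6), Cd63 at 34.5, Cd9 at 8.48, Fabp5 at 5.70, Lgals3 at 2.20 and Spp1 at 1.84 (1.27 to 2.71), and Lpl at 2.23, while Gpnmb had no normal UMI. Sinusoidal endothelial markers rose in the same cells, from 8.56 to 23.5 UMIs per 10000 for the sum of 11 markers (10 of 10 tested above 1, 7 over 2-fold, 1 of 11 at 0), and stellate cell markers from 1.52 to 4.29. Their part in the result was not tested. Leaving out the fibrosis cluster of 27 Kupffer-like cells, 74.1% of which had high doublet scores, kept 7 of 8.

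**Figure D3:**
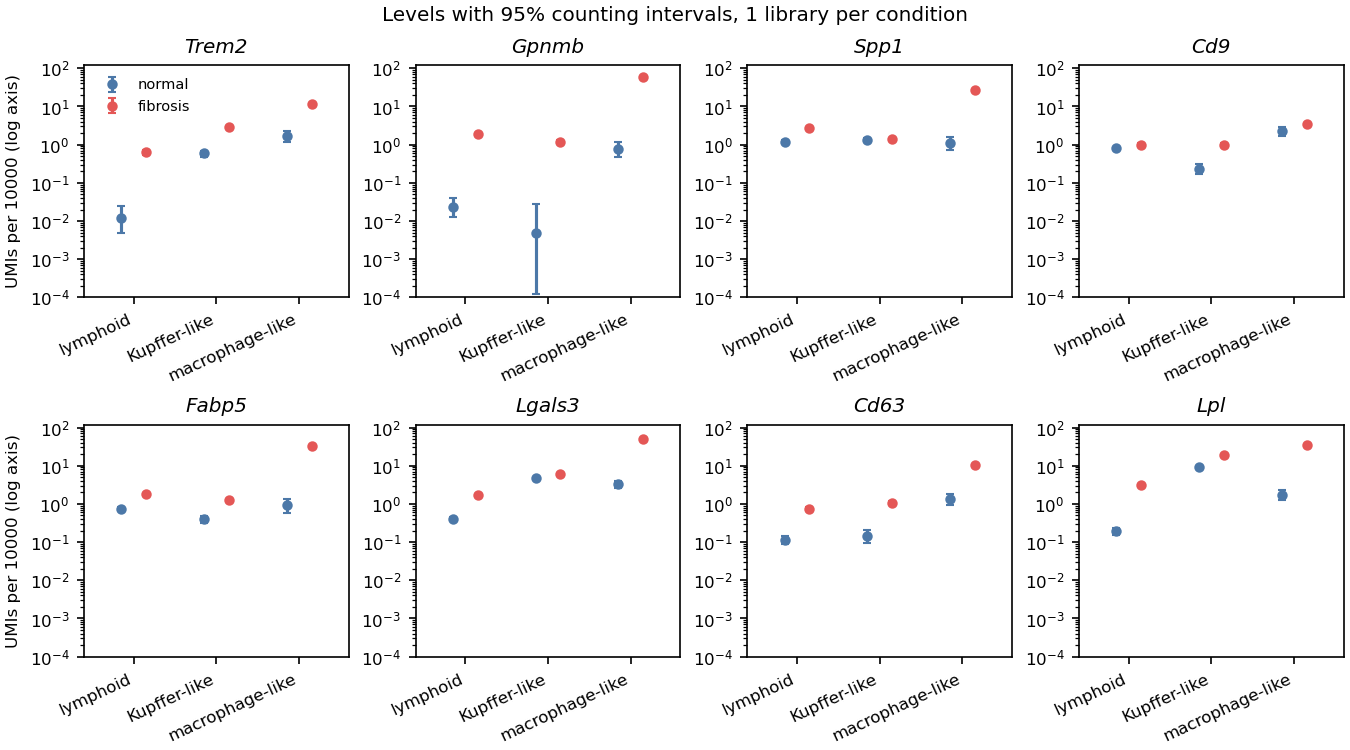
Level of each gene (y axis, UMIs per 10000, log axis) in lymphoid, Kupffer-like and macrophage-like cells of the normal (blue) and fibrosis (red) library, with 95% Poisson intervals as bars. Fibrosis macrophage-like points lie above all others in each panel, while Gpnmb, Spp1 and Fabp5 in fibrosis Kupffer-like cells lie below the fibrosis lymphoid points.

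In macrophage-like cells the ratios of Fabp5, Spp1, Lgals3 and Lpl lay above those in Kupffer-like cells, with intervals that did not overlap, and that of Cd9 lay below in the same way. Fibrosis over normal gave 75.6 for Gpnmb (48.9 to 124), 35.5 for Fabp5 (23.8 to 55.4), 24.6 for Spp1 (17.1 to 36.7) and 20.4 for Lpl (15.2 to 28.0). Lgals3 gave 15.5 (12.5 to 19.4), Cd63 8.01 (5.76 to 11.5), Trem2 7.18 (5.32 to 9.93) and Cd9 1.56 (1.20 to 2.07). The normal values rest on between 20 UMIs for Gpnmb and 85 for Lgals3, and on the Cx3cr1-led cluster of 52 cells against the Mmp12 and Ms4a7 clusters. The normal level of Spp1 (1.11) was not above that of normal lymphoid cells (1.20), nor was that of Fabp5 (0.917 against 0.740) by its interval, so these ratios start from levels at or near the free RNA measure. Per cell all 8 ratios were larger, from 5.45 for Cd9 (4.20 to 7.21) and 27.9 for Cd63 to 124 for Fabp5 and 263 for Gpnmb, at median depths of 4579.5 normal and 15709 fibrosis UMIs.

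To avoid this dependence on where the class was drawn, Kupffer-like and macrophage-like cells were also pooled (458 normal, 517 fibrosis). All 8 members were then higher in fibrosis by the interval, against 35.5% of 4033 genes, and all 8 were over 2-fold, against 6.87%. Gpnmb went from 0.0918 to 37.6 UMIs per 10000 (ratio 410, 268 to 662, with all normal UMIs in 3 cells), Fabp5 from 0.459 to 21.4 (46.6, 38.5 to 57.0) and Cd63 from 0.280 to 7.28 (26.0, 20.3 to 33.8). Spp1 went from 1.33 to 18.0 (13.5), Trem2 from 0.708 to 8.64 (12.2), Lgals3 from 4.70 to 34.5 (7.34), Cd9 from 0.463 to 2.59 (5.58) and Lpl from 8.17 to 29.5 (3.60). The median of the 8 ratios was 12.9, and the median log2 ratio of all genes was 0.04. At the 5% mitochondrial limit, with clusters drawn anew, Gpnmb was at 1716 (308 to 67784), Spp1 at 23.1, Lgals3 at 11.3 and Cd9 at 3.73. Per cell, in the cells first pooled, Spp1 was at 39.6, Trem2 at 35.8 and Lgals3 at 21.5. Without the 3 cells with most UMIs of a gene, Cd63 was at 39.7 and Gpnmb had no normal UMI left. The change in the mix of the 2 classes enters these values. All 8 remained higher after the lymphoid level was subtracted.

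Within the fibrosis library, macrophage-like cells exceeded Kupffer-like cells for 8 of 8 members by the interval, against 26.3% of 4126 genes, and over 2-fold for 7, against 5.67%. The ratio was 48.7 for Gpnmb (43.6 to 54.5), 26.3 for Fabp5, 19.8 for Spp1, 10.3 for Cd63, 8.24 for Lgals3, 4.01 for Trem2, 3.48 for Cd9 and 1.82 for Lpl. In the normal library Gpnmb was again first (155, 24.8 to 6417, from 20 UMIs in few cells against 1 UMI), and the rest had another order. Cd9 (9.35, 6.27 to 14.0) and Cd63 (9.34, 5.55 to 15.8) were higher in macrophage-like cells, as were Trem2 (2.80, 1.93 to 4.0) and Fabp5 (2.29, 1.39 to 3.66). Lgals3 (0.664, 0.526 to 0.829) and Lpl (0.191) were higher in Kupffer-like cells, and Spp1 was not separated (0.813, 0.535 to 1.19).

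The 2 macrophage-like clusters of the fibrosis library shared Trem2 and differed in most other members. Trem2 stood at 11.9 UMIs per 10000 in the Mmp12 and 11.6 in the Ms4a7 cluster (ratio 1.03, 0.971 to 1.08). The other 7 were higher in the Mmp12 cluster, against 20.3% of 3658 genes, and 5 were over 2-fold, against 1.59%. Fabp5 was 43.3 against 13.6 (3.19, 3.05 to 3.33), Lgals3 65.8 against 22.8 (2.89), Spp1 35.6 against 12.5 (2.84), Lpl 44.2 against 19.1 (2.31) and Cd9 4.26 against 2.07 (2.05). Gpnmb was 70.2 against 35.9 (1.96, 1.90 to 2.01) and Cd63 12.6 against 7.37 (1.71). The clusters were drawn from other genes of the same cells, with median depths of 18410 and 13312.5 UMIs, so these ratios are a description.

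**Figure D4:**
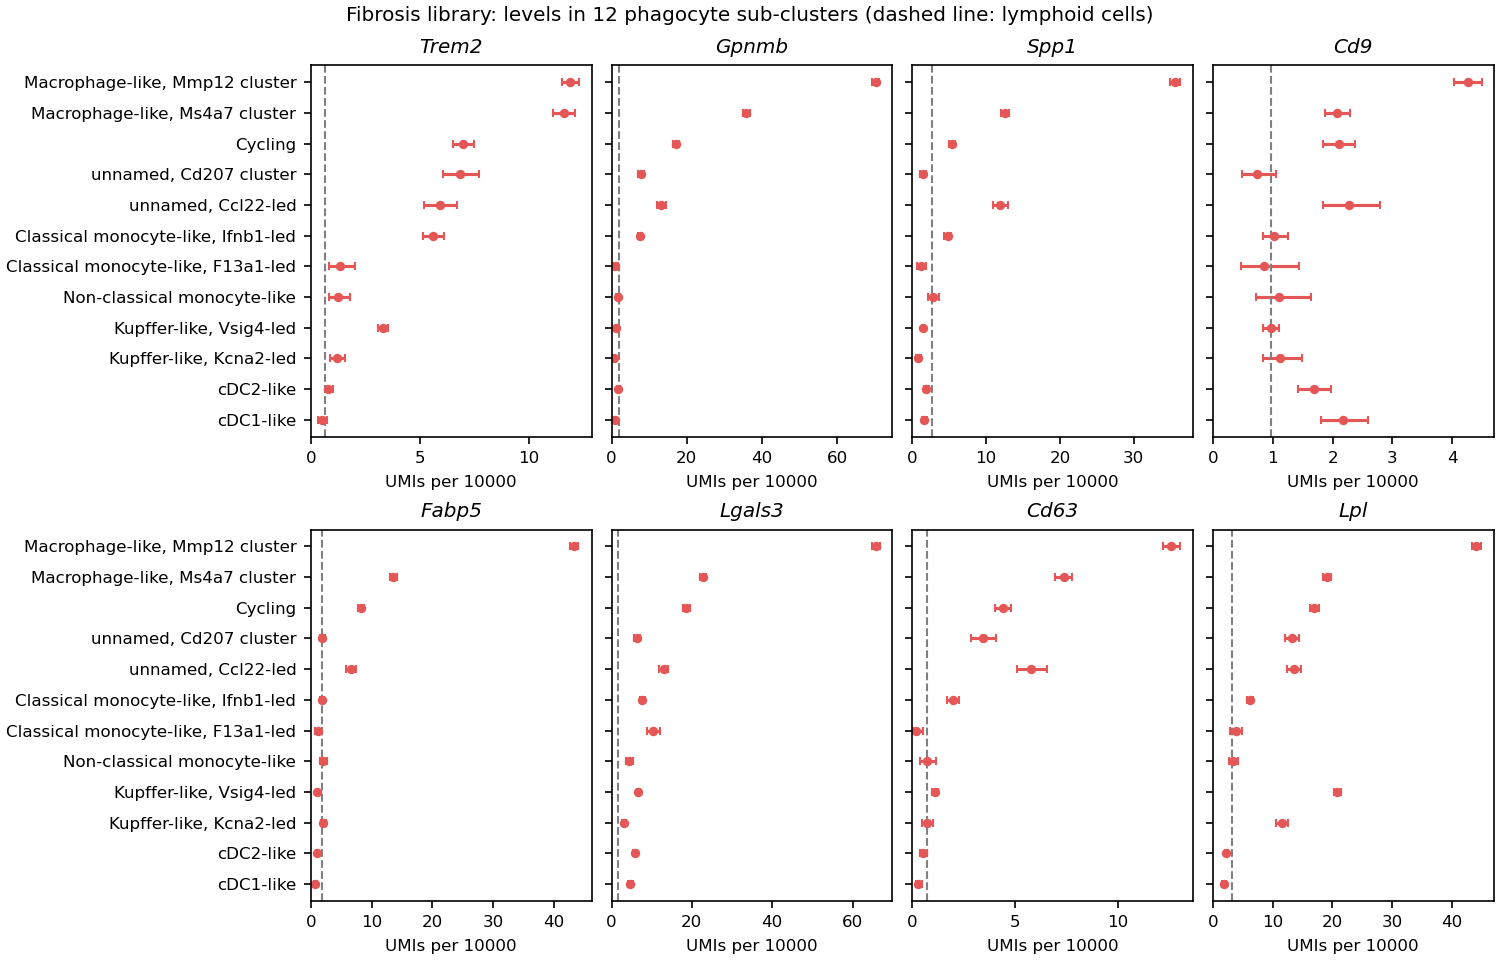
Level of each gene (x axis, UMIs per 10000, own scale per panel) with 95% Poisson intervals in 12 phagocyte clusters of the fibrosis library (rows), and in lymphoid cells (dashed line). The Mmp12 cluster holds 70.2 of Gpnmb and 35.6 of Spp1, against 35.9 and 12.5 in the Ms4a7 cluster.

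Cycling phagocytes, the Ccl22-led cluster and the Ifnb1-led monocyte-like cluster of the fibrosis library lay between lymphoid and macrophage-like cells for the genes given here. Cycling cells (62) had 6.98 UMIs of Trem2, 17.0 of Gpnmb and 18.7 of Lgals3 per 10000. An unnamed cluster of 59 cells led by Ccl22 and Il12b had 5.92 of Trem2, 13.3 of Gpnmb and 11.9 of Spp1, and classical monocyte-like cells led by Ifnb1 (108) had 5.59, 7.64 and 4.80. These clusters lay above lymphoid cells for all 3 genes. Conventional dendritic cells were not separated from lymphoid cells for Trem2 (0.508 in cDC1-like, 0.803 in cDC2-like cells), and for Gpnmb cDC1-like cells (0.805) were below and cDC2-like cells (1.83) not separated.

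A small cluster with Cd207 among its 3 leading genes was found in each library, as the macrophage-like cluster of 52 normal cells and as an unnamed cluster of 31 fibrosis cells that also carried Kupffer markers. This pair was chosen after values were seen. Compared directly, 6 of 8 members were higher in fibrosis, against 17% of 4397 genes, and 5 were over 2-fold, against 11.1%. Of the 6, Fabp5 in the fibrosis cluster (1.87, 1.46 to 2.34) was not separated from fibrosis lymphoid cells (1.77). Gpnmb went from 0.764 to 7.84 UMIs per 10000 (10.3, 6.53 to 17.0), Lpl from 1.72 to 13.2 (7.68, 5.66 to 10.7) and Trem2 from 1.64 to 6.86 (4.17, 3.02 to 5.90). Cd9 was at 0.330 times its normal level (0.204 to 0.524), the 1 member that was lower, against 14.9% of genes, and Spp1 was not separated (1.32, 0.831 to 2.14). The Kupffer markers were higher in the fibrosis cluster (7 of 9 tested), so the clusters are not the same cells in each library.

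The members were also counted together in single cells, after thinning to 1000 UMIs. In the fibrosis library 235 of 278 macrophage-like cells (84.5%, 79.7 to 88.6) had at least 4 of the 8, with 94.9% in the Mmp12 and 71.3% in the Ms4a7 cluster. The share was 11.7% in Kupffer-like (7.93 to 16.5) and 3.39% in lymphoid cells. It was 29.0% in cycling phagocytes, 23.2% in the Ccl22-led cluster and 15.3% in classical monocyte-like cells. In the normal library 0 of 406 Kupffer-like and 0 of 52 macrophage-like cells had 4 or more, while 2 of 64 cells of an unnamed phagocyte cluster led by Ccl17, 1 of 107 cDC2-like and 5 of 235 cholangiocyte-like cells did. Both Trem2 and Gpnmb were detected in 56.5% of fibrosis macrophage-like and 1.26% of Kupffer-like cells.

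**Figure D5:**
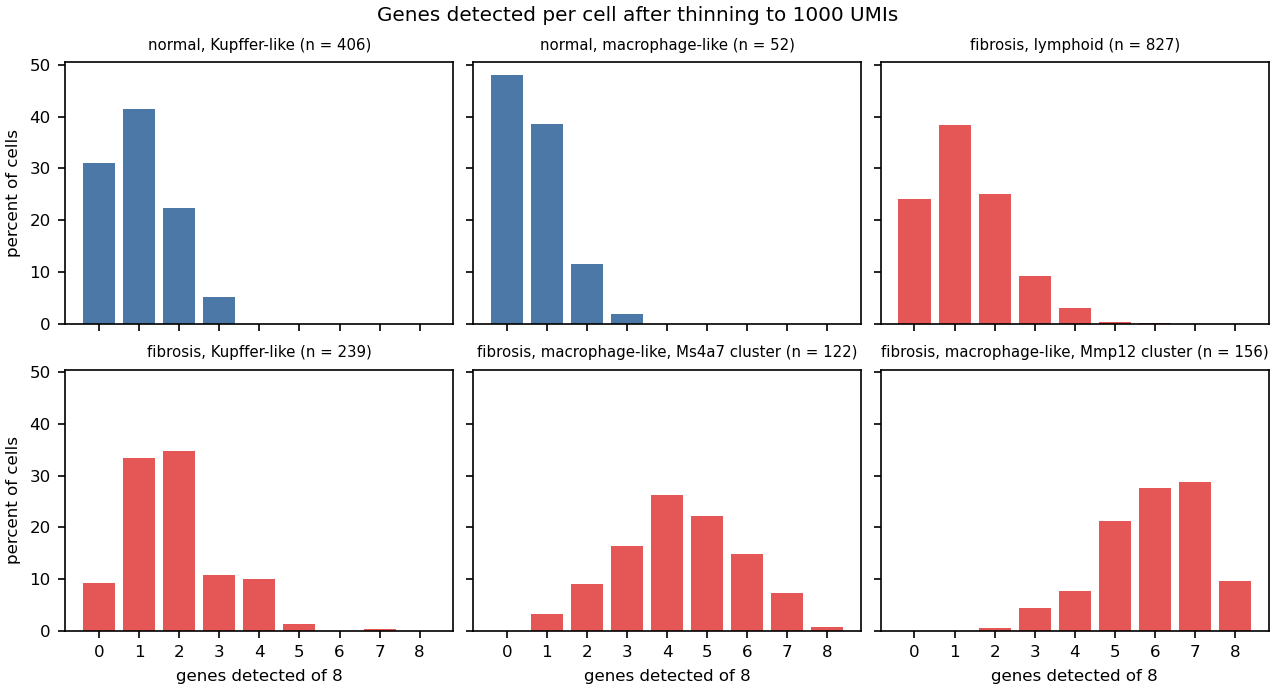
Number of the 8 genes with a UMI in a cell thinned to 1000 UMIs (x axis) against the percent of cells (y axis), for Kupffer-like and macrophage-like cells of the normal library (blue) and lymphoid, Kupffer-like and the 2 macrophage-like clusters of the fibrosis library (red). Most fibrosis macrophage-like cells have 4 or more genes, and no normal macrophage-like or Kupffer-like cell has.

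Across the 278 fibrosis macrophage-like cells, which share 1 library, levels of Fabp5 and Lgals3 (Spearman 0.54), Gpnmb and Fabp5 (0.52), Gpnmb and Lgals3 (0.41) and Lgals3 and Lpl (0.39) varied together most. Trem2 had its highest value with Gpnmb, at 0.16. Across 39 class profiles of both libraries, which share depth and free RNA within a library, Trem2 and Gpnmb had a Pearson correlation of 0.89, the highest pair, and Cd9 and Lpl of 0.00. Among 5908 genes, the profiles most like that of Trem2 were Ms4a7 (0.94), C3ar1 (0.91) and Ms4a6d (0.90). Those most like Gpnmb were Atp6v0d2 (0.90), Trem2 and Mmp12 (0.87). Those most like Spp1 were Anxa4 (0.86), Rnf128 (0.85) and Prom1 (0.85).

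Partners of the members were read from lists chosen with earlier results of these data known, in Kupffer-like and macrophage-like cells together. Over all 4033 genes, 6.87% were over 2-fold and 7.76% under 0.5-fold. Of 8 genes of TREM2 signalling and ligands, 0 were over 2-fold and 0 under 0.5-fold in fibrosis, with a median ratio of 1.07. Tyrobp, the adaptor of TREM2, went from 17.0 to 19.4 UMIs per 10000 (1.14), and Apoe, a TREM2 ligand, from 145 to 173 (1.19). Of 9 tested receptors for osteopontin, GPNMB or galectin-3, such as Cd44 (1.09) and Itgav (1.67), 0 were over 2-fold (median 1.10). Of 11 tested transcription regulators 1 was over 2-fold, Atf3 (2.71), and Mitf was at 1.69. The median of the regulators was 0.975, so these 3 lists lay near the median of all genes.

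In the lysosomal list and in the matrix and repair list more genes were higher in fibrosis. Atp6v0d2, Cd68, Mmp12 and Syngr1 of these lists were also among the leading genes of the Mmp12 cluster, so these counts are a description. Of 15 lysosome and cholesterol-handling genes 10 were over 2-fold (median 2.29), among them the protease Ctsd, from 13.7 to 90.3 UMIs per 10000 (6.57), Psap (4.21) and the acid lipase Lipa (2.6). Of 14 matrix and repair genes 11 were over 2-fold (median 3.98), with Mmp12, the macrophage elastase, from 0.481 to 11.7 (24.3, 20.2 to 29.7), Anxa1 (16.3) and Capg (8.92). Igf1 (0.854) and Pdgfb (0.789) were lower. Of 9 tested lipid uptake and storage genes 3 were over 2-fold (median 1.77), which were Fabp4 (8.19), the scavenger receptor Cd36 (8.11) and the droplet coat gene Plin2 (3.09). In Kupffer-like cells alone 2 of 14 lysosomal, 4 of 10 matrix and repair and 2 of 9 lipid genes were over 2-fold, against 5.89% of 4158 genes. In lymphoid cells 7 of 14, 3 of 10 and 4 of 9 were, against 6.06% of 4865 genes. These lists were thus also higher in the measure of free RNA, and its part was not tested.

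Cells other than phagocytes had values of their own for Cd9, Cd63, Fabp5 and Lpl. Portal fibroblast-like cells had more Lpl (10.9 to 16.7 UMIs per 10000, ratio 1.53, 1.38 to 1.71) and much less Cd9 (3.07 to 0.424, 0.138, 0.102 to 0.187) in fibrosis. This class was 44 normal cells led by Dpt, Col1a1 and Sfrp1, and 91 fibrosis cells led by Ltbp2, Serpine2 and Mfap4. Whether these are the same kind of cell was not tested. Stellate cell-like cells had more Cd63 (2.11 to 3.96, 1.87, 1.67 to 2.11) and less Cd9 (1.85 to 1.37, 0.741, 0.650 to 0.847). Sinusoidal endothelial-like cells had more Fabp5 (2.71 to 4.57, 1.68, 1.61 to 1.76). Outside the cells clustered again as phagocytes, which do not include neutrophils, Trem2 exceeded the fibrosis lymphoid level by its interval only in 2 classes. These were erythroid-like droplets (1.20, at a median of 1056 UMIs) and neutrophil-like cells (1.05).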

How the data were processed

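The authors deposited 1 table of UMI counts per gene and cell for each library, made with Cell Ranger 3.0.1 on mm10 from 10x Chromium 3′ libraries, with no normalization. The total was 44062632 UMIs in 8130 cells of the normal and 53288463 UMIs in 6437 cells of the fibrosis library, and 15 barcodes occur in both. Cells with over 10% mitochondrial UMIs were removed (659 and 305). The study's methods state that doublets were removed with Scrublet, and the tables hold as many cells as it clustered. Scrublet run again on them, at an expected rate of 0.06, called 1 cell per library. No cell was removed for it, and doublets may remain. Cells in the highest 5% of scores were removed as an alternative.

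Clustering used scanpy 1.11.5 with 2000 variable genes other than the members, 10 principal components, 20 neighbours and Leiden resolution 0.8 (leidenalg 0.10.2), and phagocyte clusters were clustered again. A cluster was named from 22 marker lists where at least 1 marker was among its 50 leading genes and at least 3 were raised 2-fold, which is a rule set after the clusters had been seen, and no other list had more markers among its 10 leading genes. Only genes with 0.5 UMIs per 10000 in either group were tested, and classes under 20 cells entered no order of levels. Thinning drew 1000 UMIs per cell, and 3 of the 830 fibrosis lymphoid cells were shallower. The median log2 ratio of all genes used a pseudocount of 0.05, and likeness of profiles was the Pearson correlation of log2 levels with a pseudocount of 0.1. The members, the gene lists and the markers were chosen with earlier results of these data known. Named genes were the members and those of 7 lists, with the examples chosen after their values were seen. Intervals were computed with scipy 1.17.1 and checked on simulated counts. Of the phagocyte clusters of the fibrosis library, 2 are not reported here on their own.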

Additional observations from a re-analysis of the deposited data

How the results depend on the processing

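Each condition was 1 library, so no value has a replicate error, and the spread between mice is unknown. No paired analysis was possible because each group has 1 sample and no test was run. The number of members higher in fibrosis Kupffer-like cells was 7. After subtraction of the lymphoid level, made per UMI only, it was 2. Gpnmb, Cd9, Fabp5, Lgals3 and Cd63 were then no longer separated by their bounds (Cd63 was 0.306 in fibrosis and 0.0311 in normal). Under the other alternatives run, the number was 7 or 8. The number higher in Kupffer-like and macrophage-like cells together stayed at 8, and the number highest in fibrosis macrophage-like cells at 6, under every alternative run for them. For the latter number, subtraction of the lymphoid level could not change the outcome, since the same value is taken from every class. The share of Spp1 UMIs in cholangiocyte-like cells was 38.1% in normal and 0% in fibrosis at a mitochondrial limit of 5%, where the name fell on 298 and 0 cells drawn anew, and 92.6% and 50.7% without the highest 5% of doublet scores. In cholangiocyte-like cells the ratios of Cd9 and Cd63 turned to 1.29 and 1.32 per cell, where the fibrosis cells were deeper (median 11901.5 against 9718 UMIs). Of the other ratios per cell 28 kept their direction and side of 1, and Spp1 in Kupffer-like cells passed it at 2.28. Thinning to 500 or 2000 UMIs moved 43 and 49 of 64 shares of cells, as shares depend on depth. The stricter naming rule (3 markers among 50 leading genes) and the removal of clusters with high doublet scores were chosen after seeing the data, and changed none of these counts beyond 1.5 times.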

Other observations

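Some values lie outside the comparisons above. In the normal library an unnamed cluster of 64 phagocytes led by Ccl17 and Ccl22, chemokines of activated dendritic cells, had 11.6 UMIs of Lgals3, 4.68 of Fabp5, 4.58 of Lpl, 3.28 of Spp1 and 1.09 of Gpnmb per 10000, and its Gpnmb was thus above that of normal macrophage-like cells (0.764, 0.467 to 1.18) in value but not by the intervals. Basophil/mast cell-like cells, 11 in normal and 9 in fibrosis, had 9.80 and 8.22 UMIs of Cd63 per 10000. The protein encoded by Cd63 is an activation marker of basophils and mast cells. Neutrophil-like cells of the fibrosis library had 4.25 UMIs of Cd9 per 10000, close to cholangiocyte-like cells (4.34) and with overlapping intervals.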
